A study of Homo sapiens with 8 samples.

Results

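The genes described here carry cholesterol through its synthesis, its sensing, its entry and transport and its export, in cultured human aortic endothelial cells given estradiol. They are 33 genes picked by symbol, by a rule that uses no measured value, from the 34415 rows of the deposited table, and all 33 had a row. The cells were TeloHAEC, wild-type human aortic endothelial cells immortalised with telomerase, so every library stands for a single cell line. RNA was sequenced from 4 control libraries and 4 libraries from cells supplied with estradiol (E2), and the medium of both groups held palmitic acid (PA), a saturated fatty acid used to imitate an atherosclerosis-prone setting. No group without palmitic acid was analysed here, and the sources used here give neither doses nor times. The titles set the groups, since the treatment tag of the estradiol libraries mentions only the palmitic acid, and nothing in the labels says whether replicates were separate cultures, so all p-values measure how far single libraries differed, which may be technical spread.

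Cells make cholesterol from acetyl-CoA through mevalonate and squalene, and the enzymes of that chain are switched on together by SREBP transcription factors. When sterols are scarce, the escort protein SCAP carries SREBP out of the endoplasmic reticulum for cleavage, and when sterols are plentiful the INSIG proteins hold it back. Cholesterol that enters through lipoprotein receptors leaves the lysosome through the NPC proteins, and surplus cholesterol is exported by ABC transporters under the control of the liver X receptors (LXR), nuclear receptors that sense oxysterols. In endothelium this balance bears on lipoprotein handling, on the caveolae and on the response to fatty acids.

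Levels are FPKM, fragments scaled to the length of the gene and to the fragments assigned in the library, which correct for length and depth. The reads behind them could be recovered, and the libraries held 33421051 to 39899258 reads in genes. Between 10609 and 10959 genes reached 1 FPKM. Of 12 endothelial markers 10 had a mean of at least 1 FPKM, with 127 for CDH5 and 42.3 for PECAM1, while VWF and EMCN stood at 0.296 and 0.280. The endothelial list summed to 487 to 674 FPKM in control and 489 to 639 in estradiol libraries. Of macrophage and fibroblast markers 0 of 8 and 0 of 6 reached that level. Of smooth muscle markers 2 of 7 did (ACTA2 and TAGLN, with DES and ACTG2 listed at 0), and of epithelial markers 4 of 7 did (KRT8, KRT18, KRT19 and CLDN7), with sums in the 2 groups of 15.0 to 21.2 and 14.0 to 22.2 FPKM and of 81.8 to 126 and 83.5 to 113 FPKM. Control replicate 3 and estradiol replicate 4 stood apart from the other 6 libraries over all genes, on a first principal component with 68.7% of the variance. Results are given over all 8 libraries and, where the pair moves them, over the other 6.

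Genes of every role were transcribed in these cells. All 33 genes had a mean of at least 1 FPKM and were tested. The least covered were TM7SF2, with 67 to 114 reads per library, and NR1H3, with 96 to 155, and the other 31 had at least 475 in every library. Gene models in the deposited table ranged from 1125 bases for EBP to 11489 for ABCG1, and a model longer than the transcript that is made lowers the FPKM. Levels over the 8 libraries ran from 1.24 FPKM for NR1H3, 1.40 for ABCG1 and 1.58 for TM7SF2, at ranks 10367, 10159 and 9943 of the 10720 genes tested, to 69.7 for CYP51A1, 95.3 for FDPS and 104 for NPC2, at ranks 794, 554 and 509. FDPS and NPC2 overlapped in their ranges over libraries, as did the 3 genes at the low end. Together the 33 genes summed to 935 ± 10.6 FPKM in the control group and 908 ± 15.6 with estradiol (SD, n = 4 each). That was 0.271 ± 0.00834% and 0.263 ± 0.00471% of all FPKM (SD, n = 4 each). The highest estradiol sum, 923 in replicate 1, lay above the lowest control sum, 921 in replicate 4, so the groups overlapped.

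**Figure D1:**
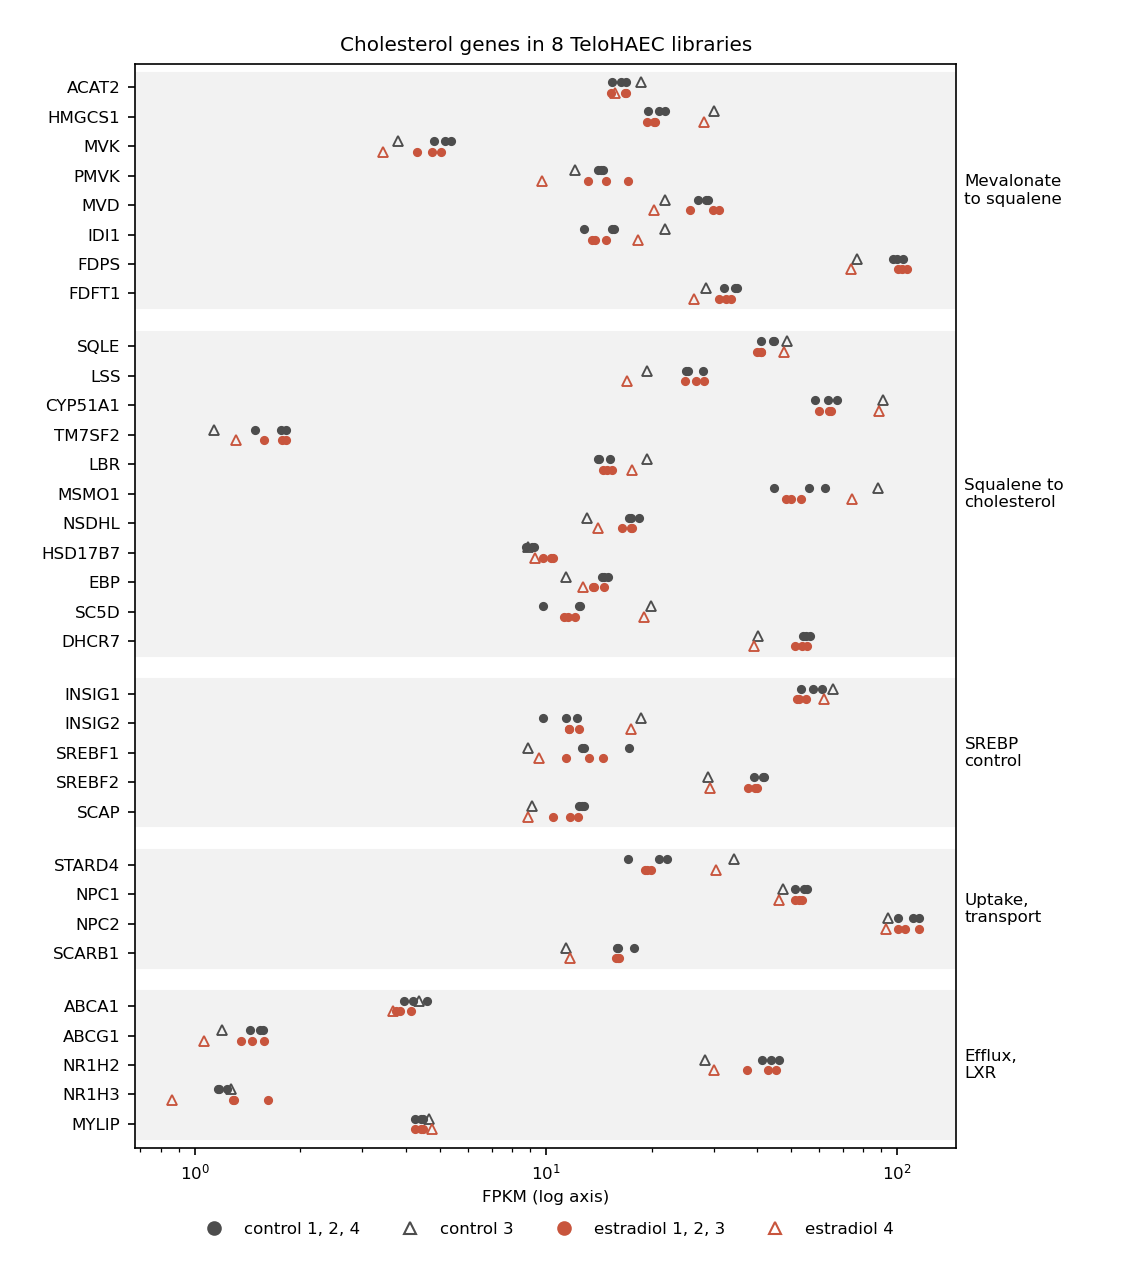
FPKM (horizontal, log axis) of the 33 genes in each library, grouped by role, with a point for each of the 8 libraries. Control (grey) and estradiol (red) points overlap for every gene but HSD17B7. The open triangles (control replicate 3 and estradiol replicate 4) fall on the same side of the filled points for 29 of 33 genes, for example at 34.4 and 30.5 FPKM for STARD4. For such genes the groups must overlap.

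No gene of the set passed the test between estradiol and control. By limma on log2(FPKM + 1), with p adjusted over the 10720 genes with a mean of at least 1 FPKM, 0 of 33 rose and 0 fell (threshold 0.05), against 0% of all genes tested in each direction, and the adjusted p was 1.00 for every member. Unadjusted p was under 0.05 for 0 of 33 members and for 26 of all genes tested, or 0.243%. That is far below the share of 0.05 that evenly spread p-values would give. Log2 fold changes ran from -0.13 for MSMO1 to 0.13 for HSD17B7. Their median was -0.028 over the members and -0.00047 over all genes tested. All fold changes given below are on this log2 scale. Values were negative for 27 of 33 members, or 81.8%, and for 50.5% of all genes tested. The number of negative values changed with single libraries: it was 19 without control replicate 1, 20 without control replicate 4 and 16 without estradiol replicate 4, where the median was 0.015. Without control replicate 3 the median was -0.075 with 22 negative. Over all genes tested the median was 0.013 without estradiol replicate 4 and -0.012 without control replicate 3. In the 6 libraries outside the pair 21 of 33 were negative, with a median of -0.033. The sign turned positive there for ACAT2, PMVK, MVD, LSS, LBR and SC5D. In RNA from a whole culture, fewer transcripts per cell and fewer cells that make them cannot be told apart.

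The intervals show what size of change these data could hold, with the shift of the pair counted as spread between libraries. The widest 95% interval was that of SC5D, -0.49 to 0.48 on the log2 scale, the lowest bound was that of MSMO1, with -0.59 to 0.33, and the narrowest belonged to MYLIP, at -0.16 to 0.17. The median standard error over members was 0.133, against 0.125 over all genes tested. With the pair set aside it was 0.0616 over members, and still 0 of 33 passed (lowest adjusted p 0.992, limma). A batch term for the pair gave a median standard error of 0.0545 over members. The scale understates the change of genes near 1 FPKM.

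**Figure D2:**
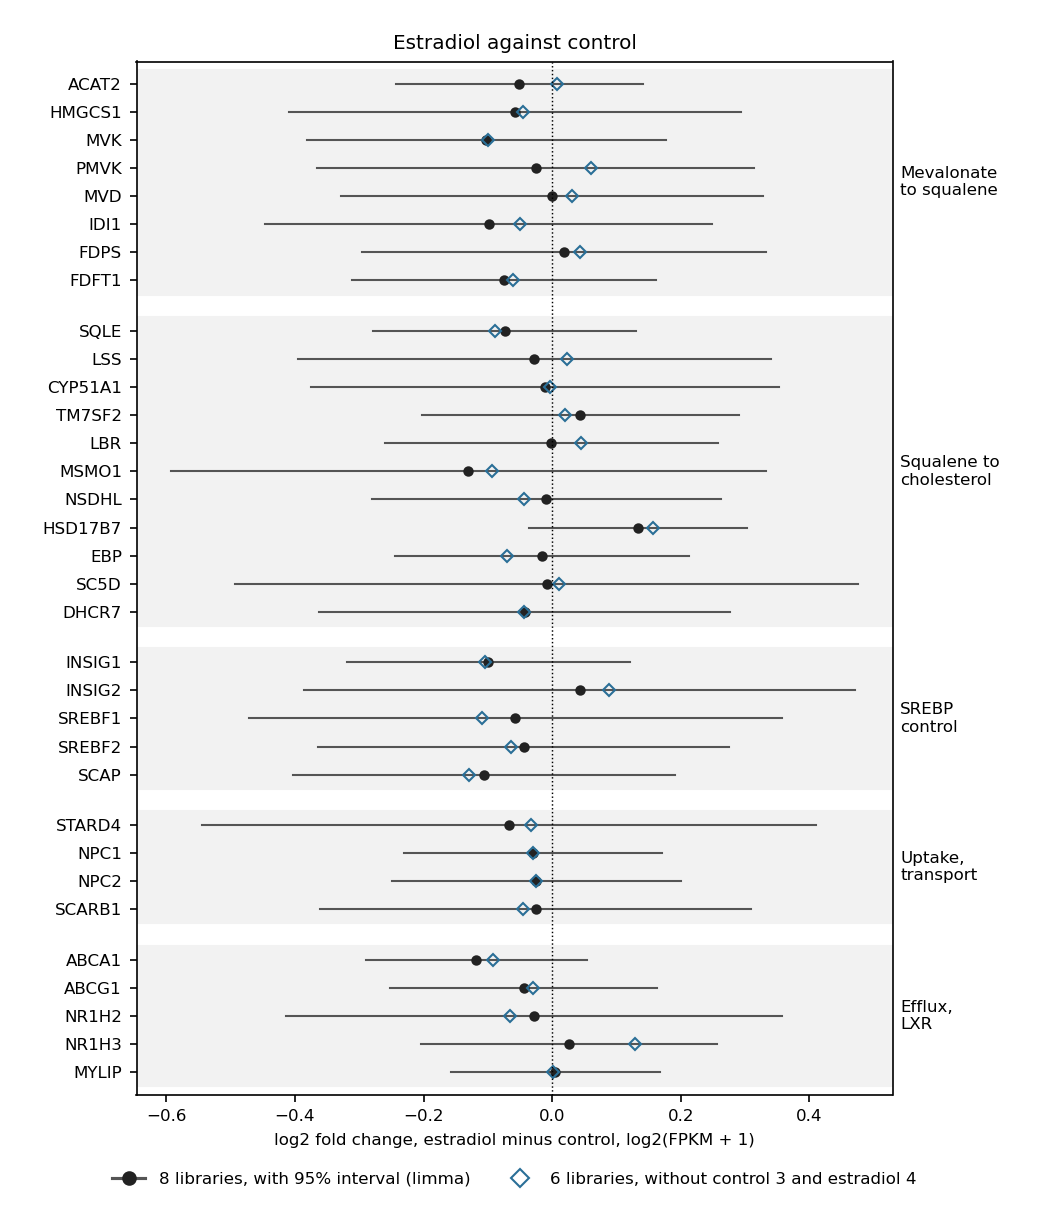
Log2 fold change of each gene, estradiol minus control, on log2(FPKM + 1), with its 95% interval over 8 libraries (points and lines) and without control replicate 3 and estradiol replicate 4 (diamonds). Every interval includes 0, and the diamond of HSD17B7 lies at 0.16, the highest of the 33.

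The early synthesis enzymes, from acetyl-CoA to squalene, summed to 229 ± 10.4 FPKM in the control group and 225 ± 20.3 with estradiol (SD, n = 4 each). Of 8 genes 0 passed, 7 had negative values and the median log2 fold change was -0.054. In the 6 libraries outside the pair it was -0.019, with 4 of 8 negative. With 1 library left out the median ran from -0.079 (without control replicate 3) to -0.0076 (without estradiol replicate 4). FDPS, which makes farnesyl diphosphate and so also feeds protein prenylation, was the most abundant at 94.5 ± 11.9 FPKM in the control group and 96.0 ± 15.0 with estradiol (SD, n = 4 each), with a log2 fold change of 0.018 ± 0.14 SE. HMGCS1, the synthase that makes HMG-CoA in the cytosol, measured 19.6, 21.8, 30.1 and 20.9 FPKM in control replicates 1 to 4 and 20.4, 19.5, 20.4 and 28.2 in estradiol replicates 1 to 4. Its groups overlapped throughout, and the high values in both were those of control replicate 3 and estradiol replicate 4 (log2 fold change -0.058 ± 0.16 SE). IDI1, the isomerase of the isoprene units, had the same shape, from 12.8 FPKM in control replicate 4 to 21.8 in control replicate 3, at -0.098 ± 0.16 SE.

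The kinases and the decarboxylase that follow showed the opposite order of libraries. MVK, mevalonate kinase, measured 5.36, 5.15, 3.79 and 4.79 FPKM in control replicates 1 to 4 and 5.04, 4.74, 4.31 and 3.44 in estradiol replicates 1 to 4. Its lowest values in each group were those of the same 2 libraries, and its log2 fold change was -0.10 ± 0.12 SE. PMVK, the next kinase, stood at 13.7 FPKM over the 8 libraries (-0.026 ± 0.15 SE), and MVD, which decarboxylates the product, at 26.7 (-0.00057 ± 0.15 SE). FDFT1, squalene synthase, stood at 31.8 FPKM (-0.075 ± 0.11 SE). ACAT2, a cytosolic thiolase at the entry of the pathway, stood at 16.5 FPKM (-0.051 ± 0.086 SE), and its gene overlaps TCP1, at 158 FPKM. Whether strand was used in counting is not stated in the sources used here, so reads of overlapping genes cannot be told apart and the ACAT2 level is uncertain. In all, 8 members overlap a gene at 1 FPKM or more in the RefSeq annotation. Besides ACAT2 and NR1H3 (given with its values) they are MVK with MMAB (3.62 FPKM), IDI1 with WDR37 (8.25), FDPS with RUSC1-AS1 (1.51), INSIG1 with INSIG1-DT (2.18), SREBF1 with RAI1 (7.22) and NPC1 with RMC1 (20.6), each below the member.

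The late enzymes, from squalene to cholesterol, summed to 324 ± 27.8 FPKM in the control group and 313 ± 18.8 with estradiol (SD, n = 4 each). Of 11 genes 0 passed, 9 had negative values and the median log2 fold change was -0.011. Over 6 libraries, without the pair, that median was -0.0036, with 6 of 11 negative. With 1 library left out the median ran from -0.039 (without estradiol replicate 2) to 0.015 (without estradiol replicate 4). HSD17B7, a sterol ketoreductase, was the one member whose groups did not overlap. It measured 8.77, 9.24, 8.87 and 9.16 FPKM in control replicates 1 to 4 and 10.3, 9.82, 10.5 and 9.31 in estradiol replicates 1 to 4. Its lowest estradiol value was 9.31, in replicate 4, and its highest control value 9.24, in replicate 2, so the groups were separate by a narrow gap (log2 fold change 0.13 ± 0.076 SE, 95% interval -0.036 to 0.30).

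This made 1 of 33 members higher with no overlap, where 0.308% of all genes tested were, and 0 of 33 lower, where 0.224% were. The share among members is that of a single gene. Groups had to overlap wherever control replicate 3 and estradiol replicate 4 both stood above or both below the other 6 libraries. That was so for 11 and 18 members, and for 34.6% and 43.9% of all genes tested. Only ACAT2, HSD17B7, ABCA1 and NR1H3 among the members could be free of overlap. HSD17B7 did not pass by limma (unadjusted p = 0.110, adjusted p = 1.00). In the 6 libraries without the pair its log2 fold change was 0.16 (limma, unadjusted p = 0.0128, adjusted p = 0.992). In that fit 1 of 33 members and 416 of 10720 genes had an unadjusted p under 0.05. Its value was positive under all 20 alternatives, from 0.11 to 0.16, but some of these cannot change it and all reuse the same libraries. A near-identical pseudogene copy of HSD17B7 exists in the genome, and the sources used here do not say how shared reads were assigned, so its level is uncertain. FDPS and CYP51A1 have pseudogene copies too.

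Among the other late enzymes the values fell into a high and a low type in the same 2 libraries. MSMO1, a C4 methylsterol oxidase, measured 62.2, 56.0, 88.2 and 44.5 FPKM in control replicates 1 to 4 and 49.7, 48.2, 53.1 and 74.5 in estradiol replicates 1 to 4. It had the lowest log2 fold change of the members, -0.13 ± 0.21 SE, and -0.093 over the 6 libraries outside the pair. Its control range covered every estradiol value. SC5D, a sterol desaturase, measured 12.4, 12.5, 19.96 and 9.84 FPKM in control replicates 1 to 4 and 11.5, 11.3, 12.1 and 19.0 in estradiol replicates 1 to 4, and its fold change was -0.0084 ± 0.22 SE. CYP51A1, the lanosterol demethylase, was the most abundant of this step at 69.7 FPKM (-0.011 ± 0.16 SE). SQLE, squalene epoxidase and a rate-limiting enzyme of the branch, stood at 44.6 ± 3.00 FPKM in the control group and 42.3 ± 3.47 with estradiol (SD, n = 4 each), with a log2 fold change of -0.073 ± 0.091 SE.

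DHCR7, which carries out a last reduction to cholesterol, measured 56.4, 53.9, 40.3 and 55.1 FPKM in control replicates 1 to 4 and 53.8, 55.3, 51.3 and 39.2 in estradiol replicates 1 to 4. Here the same 2 libraries held the lowest values, and the log2 fold change was -0.043 ± 0.14 SE. LSS, which closes the sterol rings, stood at 24.3 FPKM (-0.028 ± 0.16 SE), NSDHL, a C4 decarboxylating dehydrogenase, at 16.5 (-0.0090 ± 0.12 SE), and EBP, a sterol isomerase, at 13.8 (-0.016 ± 0.10 SE). A single step, the reduction at C14, can be done by the products of LBR and TM7SF2. LBR, also a protein of the inner nuclear membrane, stood at 15.7 FPKM and TM7SF2 at 1.58, with fold changes of -0.0010 ± 0.12 SE and 0.044 ± 0.11 SE.

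The genes that control SREBP summed to 135 ± 6.86 FPKM in the control group and 128 ± 3.93 with estradiol (SD, n = 4 each). Of 5 genes 0 passed, 4 had negative values and the median log2 fold change was -0.057. With the pair left out the value was -0.11, with 4 of 5 negative. With 1 library left out the median ran from -0.16 (without control replicate 3) to 0.0067 (without control replicate 1). INSIG1, itself a target of SREBP, measured 61.2, 57.5, 65.8 and 53.3 FPKM in control replicates 1 to 4 and 55.2, 51.9, 52.4 and 62.1 in estradiol replicates 1 to 4. Control values reached down to 53.3 and estradiol values up to 62.1, so the groups overlapped (log2 fold change -0.099 ± 0.098 SE, unadjusted p = 0.337). INSIG2, which is not an SREBP target in most cells, stood lower, at 13.2 FPKM over the libraries (0.043 ± 0.19 SE).

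SREBF2, which encodes the form that drives the cholesterol enzymes, measured 41.7, 39.0, 29.02 and 41.5 FPKM in control replicates 1 to 4 and 39.99, 39.4, 37.5 and 29.3 in estradiol replicates 1 to 4. SREBF1, whose products lean to fatty acid synthesis and include an LXR target, measured 17.2, 12.7, 8.88 and 12.9 FPKM in control replicates 1 to 4 and 14.6, 13.3, 11.4 and 9.57 in estradiol replicates 1 to 4. Both were lowest in control replicate 3 and estradiol replicate 4, and SREBF1 was highest in control replicate 1. Their log2 fold changes were -0.044 ± 0.14 SE and -0.057 ± 0.19 SE. SCAP, the escort protein, stood at 11.8 ± 1.77 FPKM in the control group and 10.8 ± 1.52 with estradiol (SD, n = 4 each), with a log2 fold change of -0.11 ± 0.13 SE, and -0.13 over the other 6 libraries. SREBP is controlled by cleavage, which these RNA levels do not measure.

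Genes of uptake and intracellular transport summed to 196 ± 7.89 FPKM in the control group and 192 ± 9.78 with estradiol (SD, n = 4 each). Of 4 genes 0 passed, all 4 had negative values and the median log2 fold change was -0.028. The 6-library median was -0.031, with 4 of 4 negative. With 1 library left out the median ran from -0.075 (without control replicate 3) to 0.020 (without estradiol replicate 4). SCARB1, the scavenger receptor that takes up HDL cholesterol and carries LDL across endothelium, measured 17.8, 16.0, 11.4 and 15.9 FPKM in control replicates 1 to 4 and 16.0, 16.2, 15.8 and 11.7 in estradiol replicates 1 to 4, with a log2 fold change of -0.026 ± 0.15 SE. NPC2 and NPC1, which hand cholesterol out of the lysosome, stood at 104 and 51.5 FPKM, with fold changes of -0.025 ± 0.10 SE and -0.030 ± 0.090 SE. STARD4, a cytosolic sterol carrier and SREBP target, measured 22.2, 21.0, 34.4 and 17.1 FPKM in control replicates 1 to 4 and 19.5, 19.1, 19.8 and 30.5 in estradiol replicates 1 to 4. Outside control replicate 3 and estradiol replicate 4 its values lay between 17.1 and 22.2, and its fold change was -0.067 ± 0.21 SE, and -0.033 over the other 6 libraries.

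Genes of efflux and of the LXR system summed to 51.2 ± 7.78 FPKM in the control group and 49.8 ± 7.12 with estradiol (SD, n = 4 each), of which NR1H2 made up most. Of 5 genes 0 passed, 3 had negative values and the median log2 fold change was -0.028. Leaving the pair out gave -0.029, with 3 of 5 negative. With 1 library left out the median ran from -0.092 (without control replicate 3) to 0.019 (without estradiol replicate 4). ABCA1, the exporter that loads cholesterol onto apolipoprotein A-I, measured 3.94, 4.57, 4.34 and 4.19 FPKM in control replicates 1 to 4 and 3.74, 4.13, 3.85 and 3.67 in estradiol replicates 1 to 4. Estradiol replicate 2 lay above control replicate 1, and the other 3 estradiol libraries lay below all controls. Its log2 fold change was -0.12 ± 0.077 SE (limma, unadjusted p = 0.156, adjusted p = 1.00). It was negative under all 19 alternatives that tested it, from -0.16 to -0.090, but some of these cannot change the value. ABCG1, the exporter to HDL particles, stood at 1.43 ± 0.168 FPKM in the control group and 1.36 ± 0.218 with estradiol (SD, n = 4 each), with a fold change of -0.044 ± 0.093 SE.

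NR1H2 encodes LXR beta and NR1H3 LXR alpha. NR1H2 measured 46.1, 41.1, 28.3 and 43.7 FPKM in control replicates 1 to 4 and 45.1, 42.7, 37.4 and 30.1 in estradiol replicates 1 to 4, and its fold change was -0.028 ± 0.17 SE. NR1H3 measured 1.17, 1.24, 1.26 and 1.16 FPKM in control replicates 1 to 4 and 1.29, 1.62, 1.29 and 0.864 in estradiol replicates 1 to 4. Its estradiol libraries held both its highest value, in replicate 2, and its lowest, in replicate 4, around a tight control group (log2 fold change 0.027 ± 0.10 SE, and 0.13 without control replicate 3 and estradiol replicate 4). NR1H3 overlaps ACP2, at 19.0 FPKM, so this low level is uncertain. MYLIP, an LXR target that marks lipoprotein receptors for breakdown, was the steadiest member. It measured 4.42, 4.24, 4.66 and 4.47 FPKM in control replicates 1 to 4 and 4.48, 4.42, 4.24 and 4.73 in estradiol replicates 1 to 4, a coefficient of variation of 3.85% over the 8 libraries.

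Other genes of the pathway gave no call either. Of 48 listed for esterification, the prenyl branch, SREBP processing, transport, other lipoprotein receptors, LXR partners and oxysterol enzymes, 36 were tested, and 0 rose and 0 fell at the same threshold. Their values were positive in 15 and negative in 21, with a median log2 fold change of -0.004. The smallest unadjusted p among higher values belonged to ERLIN1, a sterol sensor of the endoplasmic reticulum (0.077 ± 0.080 SE), ACAT1, the mitochondrial thiolase (0.083 ± 0.098 SE), and STARD3NL, a late endosome tether (0.074 ± 0.11 SE). Lower values included those of CAV1, the caveolar coat protein (-0.10 ± 0.088 SE), and VLDLR, a lipoprotein receptor (-0.063 ± 0.087 SE). The most abundant were SEC24D, a coat subunit of vesicles leaving the endoplasmic reticulum, at 127 FPKM (-0.00045 ± 0.086 SE), and CAV1, at 106. CES1, RXRG and CYP7B1 were listed at 0 in all 8 libraries.

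The main differences among libraries ran across the groups. In control replicate 3 and estradiol replicate 4, 11 members stood above all of the other 6 libraries, 18 stood below all 6, and 4 (ACAT2, HSD17B7, ABCA1 and NR1H3) did neither. The same was so for most genes: over all genes tested, 34.6% stood above and 43.9% below, against 33.3% and 54.5% of members. These shares are given as a description, since the 2 libraries were set apart by their values. The shift divided genes of one pathway. Among early enzymes HMGCS1 and IDI1 were above and MVK, PMVK, MVD, FDPS and FDFT1 below, and among late enzymes SQLE, CYP51A1, LBR, MSMO1 and SC5D were above and LSS, TM7SF2, NSDHL, EBP and DHCR7 below. INSIG1, INSIG2, STARD4 and MYLIP were above, and SREBF1, SREBF2, SCAP, SCARB1, NPC1, NPC2, ABCG1 and NR1H2 below.

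For 30 of 33 members the shift in each of the 2 libraries was larger in size than the log2 fold change with estradiol, the others being ACAT2, HSD17B7 and ABCA1. SC5D was 1.72 times the mean of the other 3 controls in control replicate 3 and 1.64 times that of the other 3 estradiol libraries in estradiol replicate 4. For STARD4 these ratios were 1.71 and 1.56, for INSIG2 1.67 and 1.47 and for MSMO1 1.63 and 1.48. On the other side they were 0.623 and 0.731 for SREBF1, 0.649 and 0.721 for NR1H2, 0.744 and 0.642 for LSS and 0.731 and 0.733 for DHCR7. The pair held 1 library of each group and moved alike in both. Across the 33 genes, which are not independent replicates, the 2 deviations had a rank correlation of 0.885, and 0.883 across 10250 genes tested.

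**Figure D3:**
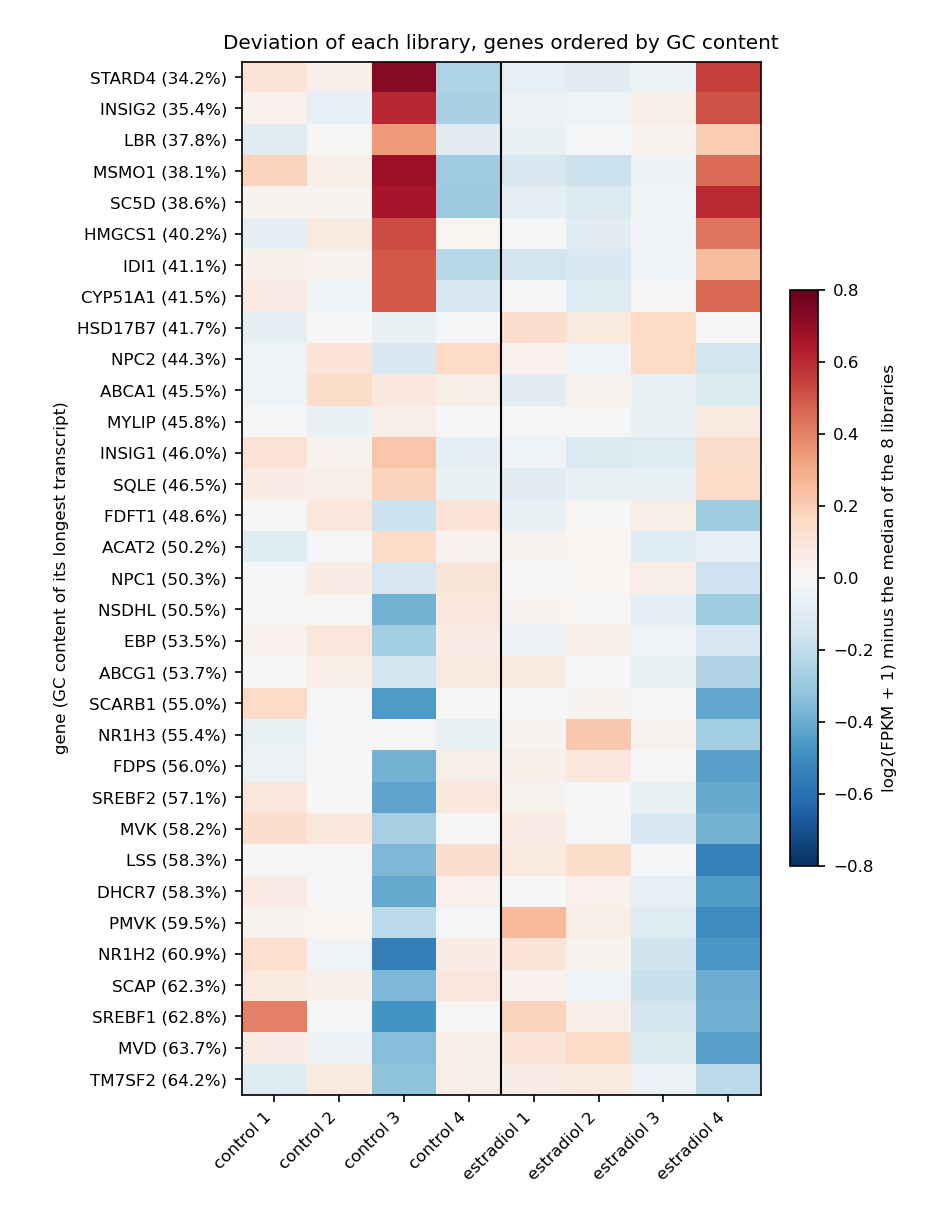
Log2(FPKM + 1) of each of the 33 genes (vertical, ordered by GC content) in each library (horizontal), minus its median over the 8 libraries, with red above and blue below that median. Control replicate 3 and estradiol replicate 4 run from red at the top (34.2% GC, STARD4) to blue at the bottom (64.2% GC, TM7SF2), and the other 6 columns stay pale for most genes.

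The side on which a member fell went with the GC content of its transcript, the share of G and C in its longest GENCODE transcript. The 11 members that stood above had 34.2 to 46.5% GC, with a median of 40.2%, and the 18 that stood below had 44.3 to 64.2%, with a median of 57.7%. The ranges overlapped from NPC2 (44.3%), which stood below, to MYLIP, INSIG1 and SQLE (45.8, 46.0 and 46.5%), which stood above. Across the 33 genes the rank correlation of the deviation with GC content was -0.853 in control replicate 3 and -0.873 in estradiol replicate 4, and across the 10250 tested genes with a GC value -0.882 and -0.842. The values over these genes and over all genes were thus close. HSD17B7 (41.7% GC) lay off it, with log2 deviations of -0.026 and -0.12, where IDI1 and CYP51A1 at like GC content had 0.55 and 0.36, and 0.52 and 0.49. The part of GC content in these shifts was not tested.

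**Figure D4:**
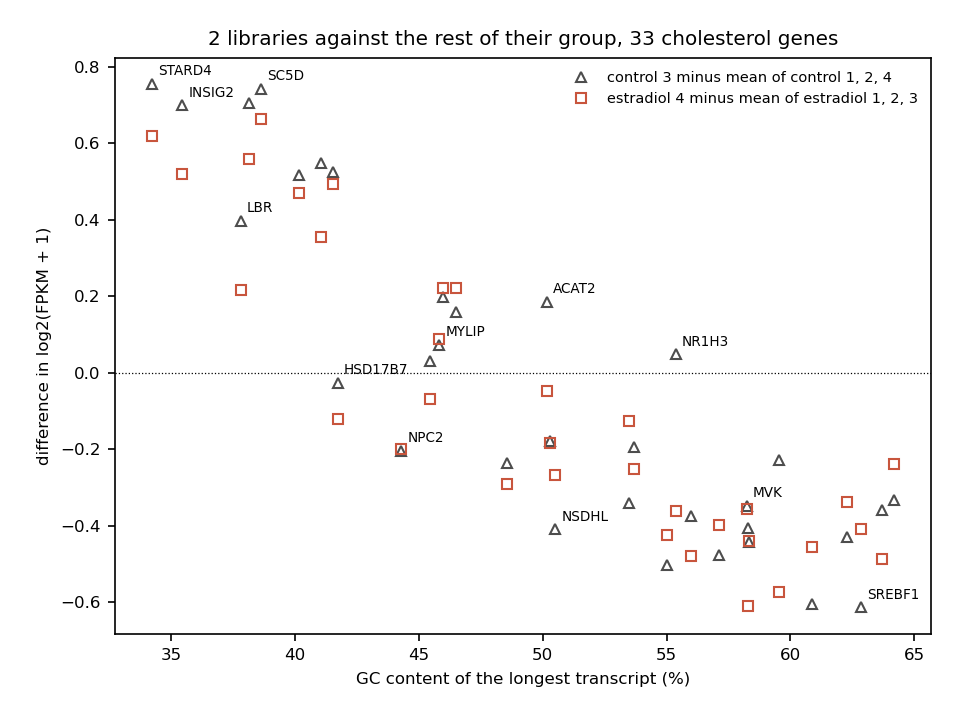
Difference in log2(FPKM + 1) between control replicate 3 (triangles) or estradiol replicate 4 (squares) and the mean of the other 3 libraries of its group (vertical), against the GC content of the longest transcript in percent (horizontal), for the 33 genes. The 8 genes of up to 41.5% GC lie above 0 in both libraries, and above 50.2% GC all points lie below 0 but that of NR1H3 in control replicate 3.

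With the GC trend of each library taken out, the estradiol comparison still gave 0 of 33 calls. Over all 10250 genes in that fit it gave 0. Members then had a median log2 fold change of -0.025, with 27 of 33 negative. The median over all genes in that fit was 0.00021. The values were -0.14 for MSMO1, -0.13 for ABCA1, -0.11 for INSIG1 and 0.12 for HSD17B7. ABCA1 had the smallest unadjusted p of the members in that fit, 0.0399 (adjusted p = 0.999, limma). It was the 1 member of 33 with that p under 0.05, where 255 of the 10250 genes had one. In the 6 libraries outside the pair the coefficient of variation was 2.46% for MYLIP and 14.8% for SREBF1, the lowest and highest of the 33. The median Pearson correlation between pairs of the 19 synthesis enzymes over those 6 libraries was 0.0364, and over all pairs of genes tested it was 0.00825, given as a description.

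SREBP acts at the promoters of its target genes, often with the factors NF-Y and SP1 as partners. RefSeq promoters (GRCh38.p14, 250 bases before to 50 after the start) were matched for 28 of the 33 genes. They were searched on both strands for the core of the sterol regulatory element, TCACNCCAC, for the NF-Y box, CCAAT, for the GC box, GGGCGG, and for the LXR element as 2 copies of AGGTCA with 4 bases between them. The sterol element core was in 1 of 28 (SREBF2), or 3.57%, and in 1.15% of all 27305 promoters. The NF-Y box was in 17 of 28, or 60.7%, against 35.7% of all promoters and 37.3% of those of the 8746 tested genes with one. The GC box was in 25 of 28, or 89.3%, against 44.6% and 71.4%. The LXR element was in 0 of 28 and in 0.0183% of all promoters. A match describes letters only, and a promoter without one lacks only those letters in this window.

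The NF-Y box lay before the start in 6 of 10 members that stood above the other 6 libraries and in 10 of 15 that stood below. Log2 fold changes with estradiol had a median of -0.025 over the 17 members with the box and -0.028 over the 11 without. The 250 bases before the start are shown, 5′ to 3′, for SREBF2, which holds the sterol element core, for the 2 members with an NF-Y box that stood highest in the pair (SC5D and STARD4) and the 2 that stood lowest (LSS and DHCR7), and for HSD17B7, whose groups did not overlap. Capitals mark the sterol element core and the NF-Y box on either strand, so that ATTGG is the box on the opposite strand.
SREBF2, chr22:41832855-41833104, plus strand: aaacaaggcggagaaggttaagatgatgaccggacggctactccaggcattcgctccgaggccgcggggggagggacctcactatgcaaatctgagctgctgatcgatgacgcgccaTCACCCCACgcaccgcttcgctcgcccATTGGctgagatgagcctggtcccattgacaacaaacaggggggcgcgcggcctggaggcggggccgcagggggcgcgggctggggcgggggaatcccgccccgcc
SC5D, chr11:121292521-121292770, plus strand: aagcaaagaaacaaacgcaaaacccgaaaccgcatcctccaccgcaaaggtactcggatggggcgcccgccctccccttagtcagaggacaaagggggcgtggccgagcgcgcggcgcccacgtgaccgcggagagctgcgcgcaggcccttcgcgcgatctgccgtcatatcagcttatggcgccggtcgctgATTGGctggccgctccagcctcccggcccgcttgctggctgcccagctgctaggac
STARD4, chr5:111512536-111512785, minus strand: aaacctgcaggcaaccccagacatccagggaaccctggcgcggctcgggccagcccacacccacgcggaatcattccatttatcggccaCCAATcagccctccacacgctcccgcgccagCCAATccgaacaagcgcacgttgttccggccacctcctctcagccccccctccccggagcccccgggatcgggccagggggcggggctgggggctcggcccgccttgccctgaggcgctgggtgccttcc
LSS, chr21:46228775-46229024, minus strand: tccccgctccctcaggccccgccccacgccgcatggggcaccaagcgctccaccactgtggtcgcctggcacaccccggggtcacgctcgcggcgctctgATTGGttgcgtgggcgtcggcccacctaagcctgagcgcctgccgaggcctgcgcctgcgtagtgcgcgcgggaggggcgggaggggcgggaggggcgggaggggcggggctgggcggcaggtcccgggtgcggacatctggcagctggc
DHCR7, chr11:71448394-71448643, minus strand: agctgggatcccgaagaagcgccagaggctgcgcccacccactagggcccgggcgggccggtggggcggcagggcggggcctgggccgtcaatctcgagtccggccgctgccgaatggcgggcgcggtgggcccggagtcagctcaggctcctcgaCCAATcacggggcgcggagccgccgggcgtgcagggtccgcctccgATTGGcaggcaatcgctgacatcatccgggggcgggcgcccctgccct
HSD17B7, chr1:162790452-162790701, plus strand: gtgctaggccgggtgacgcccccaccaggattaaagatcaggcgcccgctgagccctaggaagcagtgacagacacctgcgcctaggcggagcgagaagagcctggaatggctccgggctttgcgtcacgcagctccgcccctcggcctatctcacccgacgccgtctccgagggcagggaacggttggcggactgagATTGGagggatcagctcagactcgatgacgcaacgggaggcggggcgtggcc

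In SREBF2 the sterol element core spans bases 133 to 125 before the start and the NF-Y box bases 106 to 102. STARD4 and DHCR7 hold a pair of NF-Y boxes each, and SC5D, LSS and HSD17B7 a single one before the start. SC5D, STARD4, LSS and DHCR7 were picked among members with the box, so their sharing it was set by that choice. Their log2 fold changes with estradiol were -0.0084, -0.067, -0.028 and -0.043, all within their standard errors.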

How the data were processed

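RNA of 8 TeloHAEC libraries, 4 control and 4 estradiol, was analysed from a single table of FPKM values that the authors deposited. The submitters' processing notes name fastp 0.20.1 and HTSeq, the latter without a version. Aligner, genome build, annotation and strand setting: not given in the sources used here. Whole reads and gene lengths were recovered from the values: all 152348 values above 0 were rebuilt within a relative tolerance of 1e-06. Depth counts reads in genes only.

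The two-sided test was that of limma 3.58.1 (R 4.3.3) with its trend option, run on log2(FPKM + 1). It took in the 10720 genes whose FPKM averaged 1 or more across libraries, and Benjamini-Hochberg adjustment covered all of them. No count model was the main test, since the unit is FPKM. Both the fit and the recovery of reads were tested on simulated data. The noise simulated for the fit was independent between genes and held no shared shift like that of the pair. It thus does not show what the fit can detect in these libraries. GC content came from the longest GENCODE v29 transcript of each symbol, for 95.6% of genes tested, as a property of the gene and not for coordinates. Promoters came from RefSeq. Python 3.11.15, numpy 2.4.6, pandas 2.3.3 and matplotlib 3.10.9 served the other steps.

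The members, gene lists and the pair of libraries were chosen with earlier results of these data known. All 33 members are named, and of the other pathway genes the 3 with the smallest p in each direction and the 2 most abundant, of which 1 gene is not reported here. Alternatives were another pseudocount, other filters, size factors, quantile normalization, no trend, a replicate block, array weights, each library left out, the pair left out or given a batch term, limma-voom on recovered reads and, chosen after seeing the data, removal of the GC trend.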

Additional observations from a re-analysis of the deposited data

Results flagged for a closer look

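A value lay far from the other 3 of its group in 10 of 76 groups looked at (33 genes and 5 summed roles in 2 groups). Chance sets apart about 1 in 20 of independent groups, but these share the same libraries, so the count is a description. Estradiol replicate 4 and control replicate 3, already set apart by their values, held all 10. Estradiol replicate 4 was far above the other estradiol libraries for HMGCS1 at 28.2 FPKM against 19.5 to 20.4, SQLE at 47.5 FPKM against 39.98 to 41.0, CYP51A1 at 88.8 FPKM against 59.9 to 64.8. It was also far above them for SC5D at 19.0 FPKM against 11.3 to 12.1, INSIG2 at 17.5 FPKM against 11.6 to 12.4, STARD4 at 30.5 FPKM against 19.1 to 19.8, and for the summed late enzymes at 341 FPKM against 302 to 305. It was far below them for SCARB1 at 11.7 FPKM against 15.8 to 16.2. For each of these items control replicate 3 lay further out still, for example at 34.4 FPKM for STARD4, 361 for the late enzymes and 11.4 for SCARB1. It was not flagged there because the other controls spread more widely. Control replicate 3 was far below the other controls for DHCR7 at 40.3 FPKM against 53.9 to 56.4 and for SCAP at 9.14 FPKM against 12.4 to 12.9. The genes with high values in this list had 34.2 to 46.5% GC, and the lower 3 (SCARB1, DHCR7 and SCAP) reached 62.3%, and the part of GC content was not tested.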

How the results depend on the processing

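Under all 20 alternatives, 0 of 33 members and 0 of all genes tested passed limma at an adjusted p under 0.05, and the lowest adjusted p of a member was 0.378, for HSD17B7 with array weights. At an unadjusted p under 0.05 there were between 0 and 3 members: HSD17B7 with no filter, with array weights, without the pair that stood apart (control 3, estradiol 4) and with a batch term for it, ABCA1 with array weights and with the GC trend removed, and SQLE with array weights. Over all genes, 26 of 10720 had that p in the main fit, and 4 of 7221 with a filter at 5 FPKM. There were 437 of 23471 with no filter, 888 of 10720 with array weights and 416 of 10720 without the pair. A batch term gave 351 of 10720, removal of the GC trend 255 of 10250 and limma-voom 22 of 10720. The member counts are to be read beside these. The median log2 fold change of the members was -0.028. With 1 library left out it ran from -0.075 (without control replicate 3) to 0.015 (without estradiol replicate 4). In those fits the median over all genes tested was -0.012 and 0.013. The sign was the same under every alternative that tested it for 7 of 33 members: MVK, FDFT1, SQLE, HSD17B7, INSIG1, SCAP and ABCA1. The filters, the fit without trend, the replicate block and the batch term return the same fold change, so they cannot change a sign. With the replicate number as a block, 0 genes passed and 11 had an unadjusted p under 0.05. Deviations of same-numbered libraries had correlations of 0.616, 0.0728, -0.478 and -0.737 for replicates 1 to 4. The 2 libraries that stood apart carry different numbers and weigh on these values. The correlations thus cannot tell whether the numbers pair the libraries. Depth limits TM7SF2 and NR1H3 most, at 67 to 114 and 96 to 155 reads.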
